A study of Mus musculus with 6 samples.

Results

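The voltage-gated sodium and calcium channel genes described here are the protein-coding genes whose symbols name a sodium channel pore or beta subunit (Scn followed by a number and a or b), a calcium channel pore (Cacna1 and a letter), an alpha2-delta subunit (Cacna2d and a number) or a calcium channel beta subunit (Cacnb and a number). The rule uses names and gene type alone and found 32 of the 45777 genes in the table, 20 pore subunits and 12 auxiliary subunits. Counts and medians cover all of them, and 30 are described singly. Striatal RNA came from 6-week-old mice of the ICR strain, an outbred stock, and was sequenced in 6 libraries. In the saline-sired group (3 libraries) the father had been given saline at 10 mL/kg, and in the methylphenidate-sired group (3 libraries) methylphenidate at 15 mg/kg, in both cases under the skin and daily for 21 days before mating with untreated dams. The labels' protocols describe a treatment of the sires only, and the labels list 2 females and 1 male in each group of offspring. Methylphenidate blocks the dopamine and noradrenaline transporters. The sources used here do not give the number of sires or litters, and the p-values therefore reflect only the spread between the 6 libraries.

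Sodium channel pore proteins open when the membrane depolarises and carry the upstroke of the action potential, and the beta subunits are single-pass proteins that set their gating and place in the membrane. Calcium channel pore proteins turn depolarisation into calcium entry: Cacna1a, Cacna1b and Cacna1e encode the P/Q, N and R types of synapses and dendrites, Cacna1c, Cacna1d, Cacna1f and Cacna1s the L types, and Cacna1g, Cacna1h and Cacna1i the low-voltage T types. Alpha2-delta and beta subunits carry the high-voltage calcium channels to the surface and tune them. The bulk of striatal neurons are medium spiny neurons, in which Scn4b is known as an abundant transcript, and in a bulk sample fewer cells of a type cannot be told apart from less RNA per cell.

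Total counts lay between 31360042 and 38844724 per library. Levels are CPM, counts relative to library size, scaled by edgeR's TMM factors, and fold changes are log2, methylphenidate-sired minus saline-sired. The libraries are called saline libraries 3, 4 and 5 and methylphenidate libraries 2, 4 and 6, after the treatment of the sire and the animal number in the column heading. The striatal label fits its markers, since the 10 shared medium spiny neuron markers summed to 9054, 9873 and 9825 CPM in the saline and to 8928, 8727 and 7742 CPM in the methylphenidate libraries, with every marker detected in each. All 10 had a negative fold change (5 with an unadjusted edgeR p under 0.05, none past the adjusted test). Among all genes tested, 47.0% had a positive fold change and 9.02% an unadjusted edgeR p under 0.05. The 10 cortical excitatory neuron markers summed to 648, 353 and 842 against 1026, 1079 and 1208 CPM, all 10 with a positive fold change (8 with an unadjusted p under 0.05) and all detected in each library. The 6 choroid plexus markers summed to 2067 CPM in saline library 3 and 361 in library 4, against 29.6 to 83.8 in the other libraries. The part of these cell types in the channel values was not tested. The medium spiny neuron and cortical markers are set again beside some genes, such as Scn4b, Cacna1g and Cacnb3, and the choroid plexus markers are not.

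No channel gene passed the test across all genes (edgeR quasi-likelihood test, Benjamini-Hochberg adjusted p under 0.05), where the smallest adjusted p of a member was 0.419 for Scn4b. That threshold was passed by 4 of 17874 genes tested, or 0.0224%. Of the 28 members tested, 8 had an unadjusted edgeR p under 0.05, 5 of them higher and 3 lower in the methylphenidate group, which is 28.6% against 9.02% of all genes tested. In 8 members, 28.6%, the groups did not overlap in CPM, against 14.8% of all genes tested. DESeq2 called 2 members, Scn4b and Cacna1g, where it called 183 of the 12853 genes to which it gave an adjusted p (1.42%), and limma-voom called 0. The count of 8 members at an unadjusted p under 0.05 was 4 without methylphenidate library 6 (5.82% of all genes) and 5 without methylphenidate library 4 (6.50% of all genes). It was 3 (Scn2b, Scn4b and Scn9a) with a score of the cortical markers as a covariate (3.89% of all genes). That score was 0.38 to 0.65 in the methylphenidate and -1.37 to 0.17 in the saline libraries, without overlap. Fits with this covariate, here and below, therefore cannot tell the score and the group apart.

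Pore and auxiliary subunits are described apart. Of the 16 pore genes tested, 12 had a positive fold change, with a median of 0.10. Of the 12 auxiliary genes, 5 were positive, with a median of -0.04. Over all genes tested the median was -0.01 and 47.0% were positive. The pore median was -0.00481 with the cortical covariate and between 0.03 and 0.16 without each library in turn. The auxiliary median changed sign to 0.04 without saline library 4 and likewise to 0.04 without methylphenidate library 6.

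**Figure D1:**
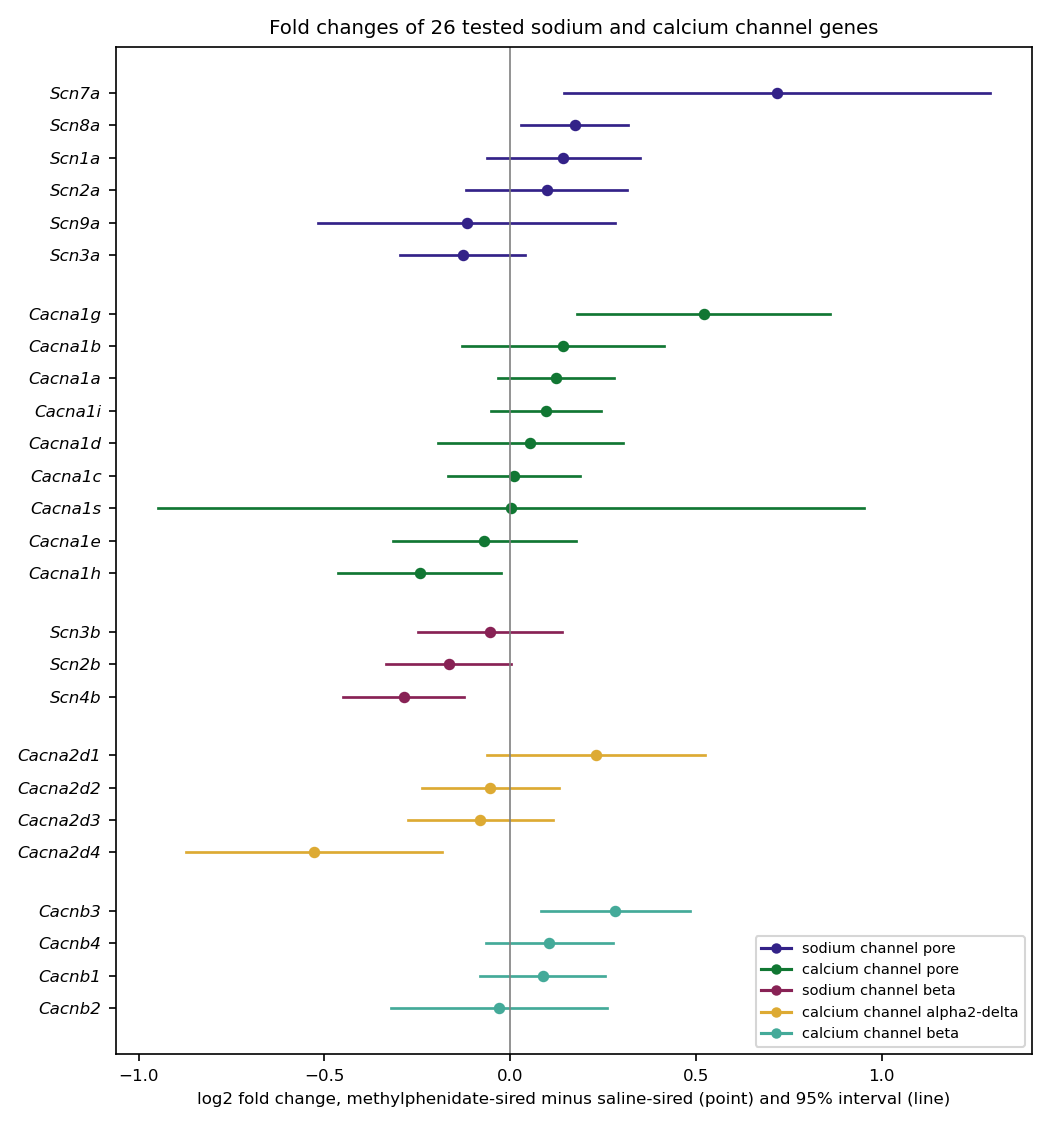
Log2 fold change (x axis, methylphenidate-sired minus saline-sired) of 26 channel genes tested, grouped by family, with the point as the edgeR estimate and the line as its 95% interval. The intervals of Scn7a, Scn8a, Cacna1g and Cacnb3 lie above 0, those of Cacna1h, Scn4b and Cacna2d4 lie below it, and none of the 26 passed the adjusted test.

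Among the sodium channel pore genes, Scn2a, Scn8a, Scn1a and Scn3a made up nearly all of the family's transcripts. Per kilobase of transcript they stood in this order in each of the 6 libraries, but in CPM Scn8a was above Scn2a in methylphenidate library 6. Scn4a, the skeletal muscle channel, was listed at 0 counts throughout. Scn1a, Scn2a and Scn3a share long stretches of similar coding sequence, and the sources used here do not give how reads that match several genes were counted. Scn3a, Scn2a, Scn1a, Scn9a and Scn7a lie in this order on chromosome 2 between 65457118 and 66784910, within 1327.8 kb. The longest identical run between 2 coding sequences of the family was 188 nucleotides (Scn1a and Scn2a), followed by 184 (Scn3a and Scn9a) and 143 (Scn3a with Scn1a and with Scn2a), so reads within these runs do not tell the genes apart. Scn8a, on chromosome 15 (100869863 to 101045938), shared at most 55 nucleotides in one run with any of these 5.

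Scn2a (Entrez Gene 110876), the main sodium channel of unmyelinated axons and developing initial segments, had the highest level per length in the family, on average 44.6 CPM per kilobase of transcript. It was at 360, 354 and 441 CPM in saline libraries 3, 4 and 5 and at 433, 414 and 389 CPM in methylphenidate libraries 2, 4 and 6. The groups overlapped, and the fold change was 0.10 (95% interval -0.12 to 0.31). Scn8a (Entrez Gene 20273), the channel of the distal initial segment and of nodes of Ranvier, was at 334, 344 and 371 CPM in the saline and at 384, 402 and 398 CPM in the methylphenidate libraries. All 3 methylphenidate values were above all 3 saline values. Its fold change of 0.17 (SE 0.06, n = 3 per group) had an unadjusted edgeR p of 0.0233 and did not pass after adjustment (edgeR adjusted p = 0.482). The unadjusted p was under 0.05 in 2 of the 6 fits that each left out 1 library. With the cortical marker score as a covariate it was 0.12 (edgeR unadjusted p = 0.242).

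Scn7a (Entrez Gene 20272), which encodes a sodium-sensing relative of the channels, was low, at 1.54, 1.07 and 1.35 CPM in the saline and 2.25, 1.82 and 2.46 CPM in the methylphenidate libraries. The groups did not overlap, and its fold change of 0.72 (SE 0.25, n = 3 per group) was the largest positive one among the members, with an edgeR adjusted p of 0.470. DESeq2 gave it no adjusted p. The unadjusted edgeR p of 0.0199 stayed under 0.05 in 4 of the 6 fits without 1 library, and with the cortical covariate the fold change was 0.45 (edgeR unadjusted p = 0.283). Scn1a, the channel that sustains firing of fast interneurons, lay between 153 and 183 CPM in the saline and 177 and 207 CPM in the methylphenidate libraries (fold change 0.14, 95% interval -0.06 to 0.35). Scn3a, the embryonic form, lay between 108 and 120 against 99.8 and 115 CPM (fold change -0.13, 95% interval -0.30 to 0.04).

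Per kilobase, Scn2a made up 40.0% of the transcripts of the sodium pore genes described here in the saline and 39.9% in the methylphenidate group, Scn8a 28.5% and 29.9%, and Scn3a 11.3% and 9.57%. Scn3a was the only one of the 4 whose shares did not overlap between groups, at 10.6% to 11.9% against 9.10% to 10.3%. Its level relative to Scn1a per kilobase was 0.62, 0.57 and 0.57 in the saline and 0.57, 0.48 and 0.42 in the methylphenidate libraries, groups that differ by a narrow margin between their nearest libraries. By coding length the mean shares over the 6 libraries were 36.8% for Scn2a and 34.8% for Scn8a, so the lead of Scn2a depends on the length used.

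Further sodium pore genes were low in this tissue. Scn9a, a channel of pain-sensing neurons, lay between 7.06 and 10.8 CPM over the 6 libraries, with groups that overlapped. The exons of Scn9a overlap those of Gm13629 on the other strand, which was at most at 4.29 CPM, and without stated strand use the reads of both cannot be told apart. Scn10a and Scn11a, channels of sensory ganglia, were not tested, since their highest counts in a library were 6 and 10 and each had 0 in at least 1 library.

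The 10 calcium channel pore genes ranged from the R-type gene Cacna1e to Cacna1f, a channel of photoreceptor terminals that was listed at 0 counts in every library. Cacna1e (Entrez Gene 12290, chromosome 1, 154390806 to 154884785) had the highest level per length, 30.6 CPM per kilobase on average. Its level was 473, 425 and 503 CPM in the saline and 517, 412 and 406 CPM in the methylphenidate libraries, and the groups overlapped (fold change -0.07, 95% interval -0.32 to 0.18). Cacna1e made up 24.1% of the family per kilobase over the 6 libraries, and Cacna1a was next in each library, with a mean of 18.2%. With the coding length in place of the transcript length Cacna1i (13.2%) and Cacna1a (13.1%) were nearly level. Cacna1i and Cacna1h, at 13.9% and 13.6%, changed places between libraries, as did Cacna1b and Cacna1c at 10.2% and 9.55%.

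The calcium pore genes whose groups stood furthest apart were 2 T-type genes, in opposite directions. Cacna1g (Entrez Gene 12291, chromosome 11, 94408391 to 94474400) was at 39.5, 31.6 and 47.3 CPM in the saline and 52.3, 52.6 and 65.0 CPM in the methylphenidate libraries. Every methylphenidate value was above every saline one. The fold change of 0.52 (SE 0.15, n = 3 per group) had an unadjusted edgeR p of 0.00756 and an edgeR adjusted p of 0.452, while DESeq2 called it (DESeq2 adjusted p = 0.0414). It was between 0.39 (saline library 4 left out) and 0.68 (saline library 5 left out) over the 6 such fits, with an unadjusted edgeR p under 0.05 in 6 of 6. The order of the 6 libraries by Cacna1g was the same as by the summed cortical excitatory neuron markers, from saline library 4 (353 CPM of markers) to methylphenidate library 6 (1208 CPM), and the part of cortical cells in this value was not tested. With the cortical marker score as a covariate the fold change was 0.14 (edgeR unadjusted p = 0.307), a fit that cannot tell score and group apart.

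Cacna1h (Entrez Gene 58226, chromosome 17, 25374285 to 25436334) was at 142, 157 and 162 CPM in the saline and 148, 125 and 116 CPM in the methylphenidate libraries. Only methylphenidate library 2 lay within the saline range. Its fold change was -0.24 (SE 0.10, n = 3 per group, edgeR unadjusted p = 0.0338, adjusted p = 0.502). The unadjusted edgeR p was under 0.05 in 2 of the 6 fits that each left out 1 library. With the cortical covariate the fold change was -0.21 (edgeR unadjusted p = 0.180). Methylphenidate library 6 was the lowest both in Cacna1h and in the summed shared medium spiny neuron markers, whose part was not tested. An exon of Cacna1h overlaps Tpsg1 on the other strand, a gene listed at 0 counts in every library. Cacna1i, the third T-type gene, lay between 159 and 176 CPM in the saline and 172 and 187 CPM in the methylphenidate libraries (fold change 0.10, 95% interval -0.05 to 0.25).

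Per kilobase, Cacna1g was at 0.27, 0.20 and 0.29 times the level of Cacna1h in the saline and at 0.35, 0.41 and 0.55 times in the methylphenidate libraries. Cacna1i relative to Cacna1h was at 0.96, 0.85 and 0.92 against 0.98, 1.26 and 1.26. These pairs, like those of the sodium channel genes, were chosen after their values were seen and are given with no test. Of 8 such pairs computed, 4 did not overlap between groups, and no share over other gene pairs was computed to read this count against. The gap was narrow for Cacna1i, with its nearest libraries at 0.96 (saline library 3) and 0.98 (methylphenidate library 2). The longest identical coding run between T-type genes was 68 nucleotides (Cacna1g and Cacna1i).

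The remaining calcium pore genes overlapped between groups, with fold changes from 0.00169 (Cacna1s) to 0.14 (Cacna1b). Cacna1a, the P/Q-type gene of presynaptic terminals, lay between 167 and 204 CPM over the 6 libraries (fold change 0.12, 95% interval -0.03 to 0.28), and Cacna1b between 96.2 and 138 CPM (95% interval -0.13 to 0.41). The L-type genes of dendrites and cell bodies, Cacna1c and Cacna1d, lay between 145 and 172 and between 55.6 and 74.2 CPM, with fold changes of 0.01 (95% interval -0.17 to 0.19) and 0.05 (-0.20 to 0.30). Cacna1s, the skeletal muscle L-type gene, was at most 0.830 CPM. Exons of Cacna1d overlap Chdh (6.41 to 11.9 CPM) on the other strand, and those of Cacna1a and Cacna1s overlap Gm16183 and Gm37759, so their counts carry the same doubt.

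Scn4b was the most abundant of the 32 genes, both in CPM and per kilobase, and the one with the lowest p. It encodes the beta4 subunit, whose intracellular tail is known as a blocker of the open pore in resurgent sodium current. Scn4b (Entrez Gene 399548) and Scn2b (Entrez Gene 72821) are neighbours on chromosome 9, both on the plus strand, with Scn2b from 45117876 to 45130070 and Scn4b from 45138624 to 45154155, 8553 bp apart. In both genes the groups did not overlap, with lower values in the methylphenidate libraries. Their promoters, 300 nucleotides from 250 before to 50 after the annotated start (RefSeq, GRCm38.p6), are printed because both neighbours were lower in the methylphenidate libraries while their promoters differ in base composition. CG dinucleotides are in capitals.
Scn2b, chr9:45117626-45117925, plus strand: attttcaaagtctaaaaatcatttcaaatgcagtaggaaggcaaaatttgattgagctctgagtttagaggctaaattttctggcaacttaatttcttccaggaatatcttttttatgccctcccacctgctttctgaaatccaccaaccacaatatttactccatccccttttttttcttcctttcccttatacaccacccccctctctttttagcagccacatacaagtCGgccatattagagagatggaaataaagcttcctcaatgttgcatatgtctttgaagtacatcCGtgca
Scn4b, chr9:45138374-45138673, plus strand: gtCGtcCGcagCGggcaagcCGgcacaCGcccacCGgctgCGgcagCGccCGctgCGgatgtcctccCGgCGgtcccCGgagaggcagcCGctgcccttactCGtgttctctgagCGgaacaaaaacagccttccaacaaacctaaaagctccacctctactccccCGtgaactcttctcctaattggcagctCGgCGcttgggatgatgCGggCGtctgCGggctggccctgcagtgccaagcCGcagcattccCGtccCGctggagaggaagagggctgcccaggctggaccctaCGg

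The Scn4b promoter held 26 CG dinucleotides at 66.3% GC and the Scn2b promoter 2 at 38.3%, against medians of 7 and 52.7% over 32851 RefSeq promoters of this length. A search of both strands for a GC box (GGGCGG, in 35.7% of all promoters), a TATA box (TATAAA, 13.6%), a CRE (TGACGTCA, 1.79%) and an E-box (CANNTG, 72.3%), none of which contains another, found 3 E-boxes in Scn2b and no other match in the pair. A promoter of this kind was at hand for 24 of the 32 members. Within 100000 bp of the pair, 5 other genes were tested, with fold changes from -0.23 (BC049352) to 0.18 (Jaml), and none had an unadjusted p under 0.05. The lncRNA Gm10684, whose span covers Scn2b, had at most 16 counts in a library.

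Scn4b was at 1429, 1584 and 1589.9 CPM in saline libraries 3, 4 and 5 and at 1296, 1301 and 1177 CPM in methylphenidate libraries 2, 4 and 6. All 3 methylphenidate values were below all 3 saline values. The fold change of -0.29 (SE 0.07, n = 3 per group, 95% interval -0.45 to -0.12) had an unadjusted edgeR p of 0.00343 and did not pass after adjustment (edgeR adjusted p = 0.419), while DESeq2 called it (DESeq2 adjusted p = 0.0136). Without each library in turn it was between -0.34 and -0.24, with an unadjusted p under 0.05 in 6 of 6. The shared medium spiny neuron markers moved with it, with a median fold change of -0.17 over 10 genes, and methylphenidate library 6 was the lowest both in their sum and in Scn4b. The 6 indirect-pathway markers summed to 2141 to 2194 CPM in the saline and 1853 to 1991 CPM in the methylphenidate libraries, and the 6 direct-pathway markers to 616 to 628 and 490 to 570 CPM. The part of these neurons in the Scn4b value was not tested. With the cortical marker score as a covariate the fold change was -0.25 (edgeR unadjusted p = 0.0439).

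Scn2b, whose beta2 subunit is disulfide-linked to the pore protein, was at 381, 362 and 427 CPM in the saline and 352, 353 and 339 CPM in the methylphenidate libraries. The groups did not overlap, with saline library 4 close to the methylphenidate values. The fold change was -0.17 (SE 0.07, n = 3 per group, edgeR unadjusted p = 0.0531, adjusted p = 0.560). It was -0.08 without saline library 5, the highest of the 6, and -0.30 with the cortical covariate (edgeR unadjusted p = 0.0125). Methylphenidate library 6 was the lowest in Scn2b, as it was in the summed shared medium spiny neuron markers, whose part was not tested.

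Scn3b, the gene of beta3, lay between 169 and 188 CPM in the saline and 150.2 and 183 CPM in the methylphenidate libraries (fold change -0.05, 95% interval -0.25 to 0.14).

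Of the summed level per kilobase of Scn4b, Scn2b and Scn3b, Scn4b made up 70.1%, 72.8% and 70.0% in the saline and 68.5%, 68.9% and 68.4% in the methylphenidate libraries, and Scn3b 9.93%, 9.41% and 9.93% against 11.6%, 11.1% and 10.5%. Neither pair of groups overlapped, while the shares of Scn2b did. Shares within a family are tied to each other, so a lower Scn4b level by itself raises the Scn3b share. In CPM the groups of Scn3b overlapped, with a fold change of -0.05. The ratio of Scn4b to Scn2b was 3.50, 4.09 and 3.48 in the saline and 3.44, 3.45 and 3.24 in the methylphenidate libraries, with a small gap between the nearest libraries.

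**Figure D2:**
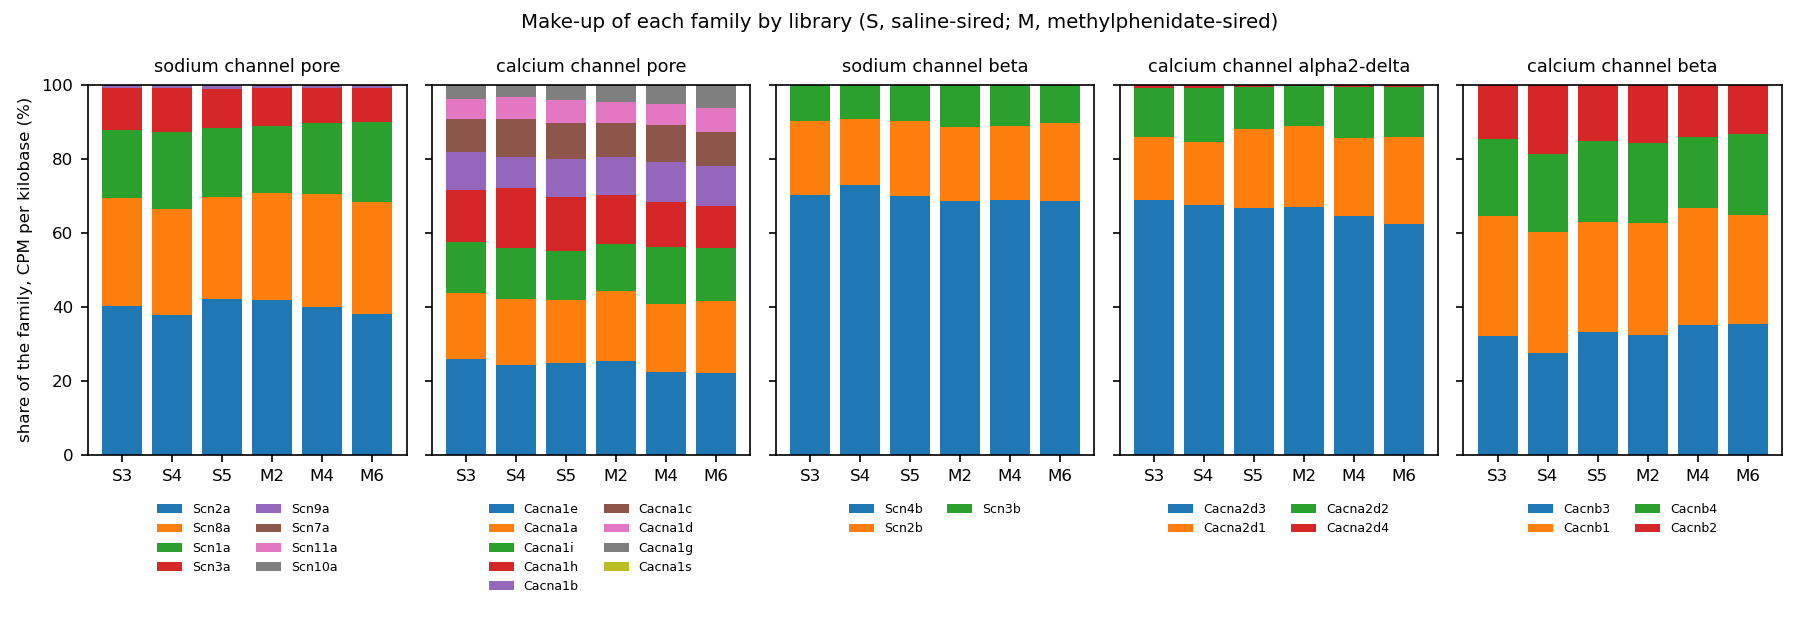
Share of each gene (y axis, percent of the summed CPM per kilobase of transcript of the family's genes described here) in each of the 6 libraries (x axis), 1 panel per family. In the sodium beta panel the Scn4b share is 70.0% to 72.8% in the saline-sired (S) and 68.4% to 68.9% in the methylphenidate-sired (M) libraries, and in the calcium pore panel the Cacna1g share is 3.20% to 4.14% against 4.55% to 6.30%.

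The alpha2-delta family was led by Cacna2d3 (Entrez Gene 12294, chromosome 14, 28904943 to 29722775), which is linked to synapse formation and to central processing of pain, with 66.2% of the family per kilobase. By coding length its share was 52.3%, and that of Cacna2d1 was 31.8% in place of 20.3%. Cacna2d3 was at 295, 273 and 309.7 CPM in the saline and 306, 269 and 254 CPM in the methylphenidate libraries, and the groups overlapped (fold change -0.08, 95% interval -0.28 to 0.11). Cacna2d1, the main receptor of gabapentin, lay between 139 and 199 CPM in the saline and 177 and 201 CPM in the methylphenidate libraries. Its fold change of 0.23 (95% interval -0.06 to 0.52) was 0.42 when saline library 5 was left out and 0.13 when saline library 4 was, and it was -0.04 with the cortical covariate. Cacna2d2, the ducky gene of cerebellar ataxia in mice, lay between 76.2 and 91.9 CPM over the 6 libraries (fold change -0.05, 95% interval -0.24 to 0.13).

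Cacna2d4 (Entrez Gene 319734, chromosome 6, 119236524 to 119352407), known for its role at photoreceptor synapses, was the rarest of the 4, with 0.739% of the family. It was at 5.49, 6.31 and 5.80 CPM in the saline and 3.68, 4.10 and 4.41 CPM in the methylphenidate libraries, groups that did not overlap. The fold change of -0.53 (SE 0.15, n = 3 per group) was the most negative among the members, with an unadjusted edgeR p of 0.00737 and an edgeR adjusted p of 0.452, and DESeq2 did not call it (DESeq2 adjusted p = 0.279). It had an unadjusted edgeR p under 0.05 without each of the 6 libraries in turn. Its fold change with the cortical covariate was -0.46 (edgeR unadjusted p = 0.0865).

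Cacnb3 and Cacnb1 had the highest levels per kilobase among the calcium channel beta genes, with mean shares of 32.6% and 31.0% that changed places between libraries. With the coding length in place of the transcript length Cacnb4 led with 43.6%, so the order in this family depends on the length used. Cacnb3 (Entrez Gene 12297, chromosome 15, 98628436 to 98644536), a partner of N- and L-type channels, was at 141, 133 and 164 CPM in the saline and 167, 188 and 177 CPM in the methylphenidate libraries. All 3 methylphenidate values were above the saline ones, the nearest pair being saline library 5 and methylphenidate library 2. Its fold change was 0.28 (SE 0.09, n = 3 per group, edgeR unadjusted p = 0.0114, adjusted p = 0.459), and the unadjusted p was under 0.05 without each library in turn. The cortical excitatory markers moved with it, and with their score as a covariate the fold change was 0.10 (edgeR unadjusted p = 0.337). Methylphenidate library 4, not library 6, was the highest in Cacnb3.

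The groups overlapped in the other calcium beta genes. Cacnb4, the gene of the lethargic mouse, lay between 276 and 336 CPM over the 6 libraries (fold change 0.10, 95% interval -0.07 to 0.28), Cacnb1 between 175 and 211 CPM (0.09, 95% interval -0.08 to 0.26) and Cacnb2 between 92.9 and 131 CPM (-0.03, 95% interval -0.32 to 0.26). Antisense genes overlap exons of Cacnb2 (Gm10849), Cacnb4 (A430018G15Rik) and Cacna2d2 (Gm17141).

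**Figure D3:**
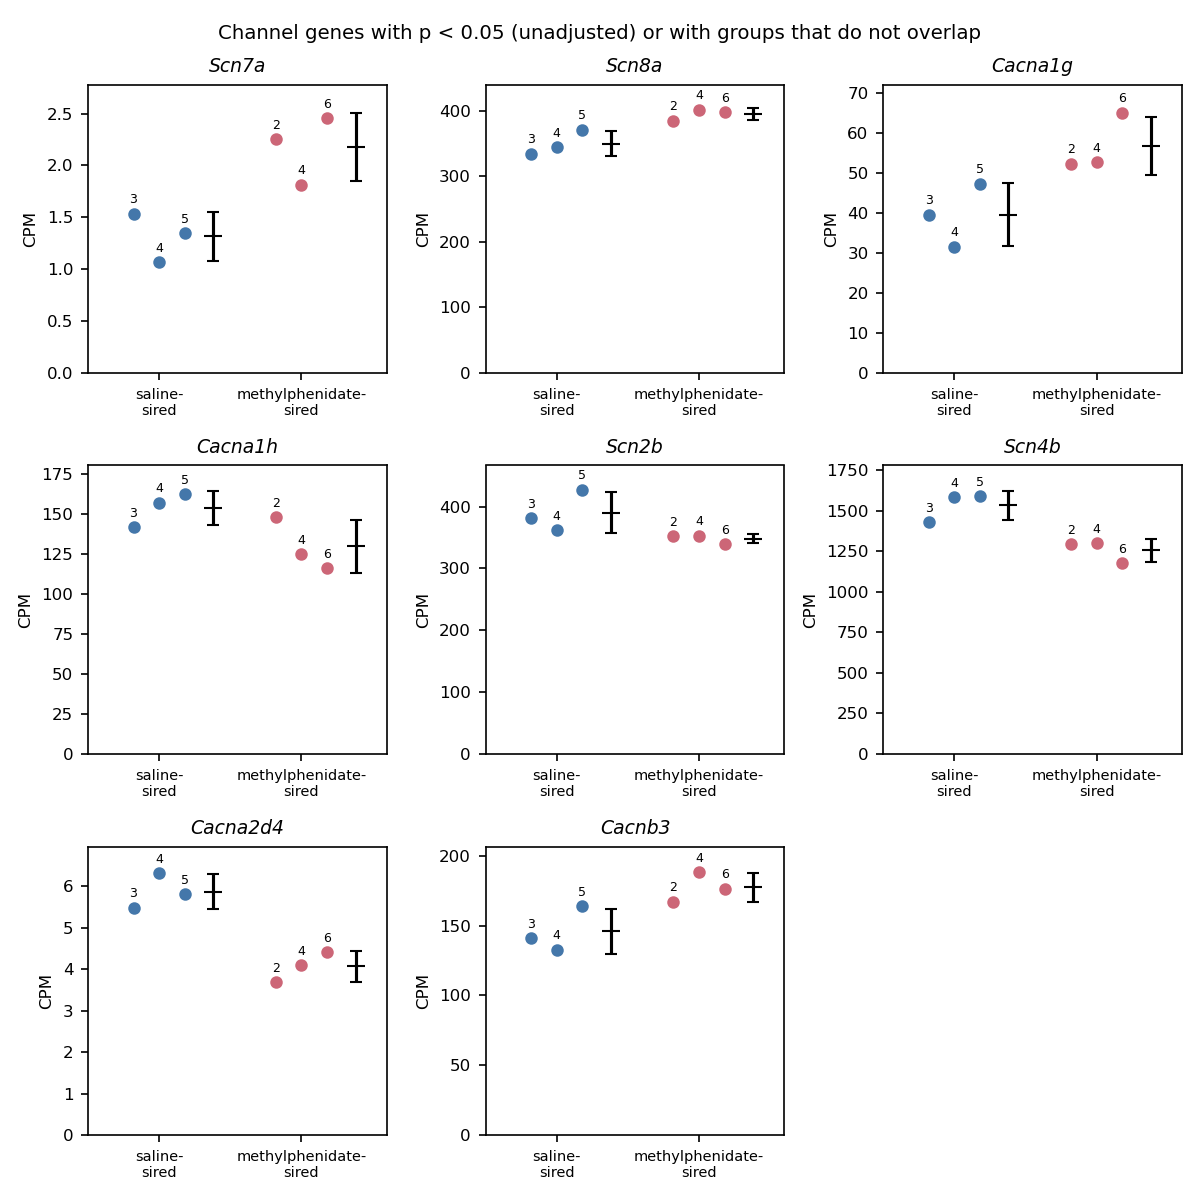
CPM (y axis, from 0) of 8 channel genes with an unadjusted p under 0.05 or with groups that do not overlap, 1 point per library with its column number, beside the group mean and SD (bars, n = 3). Scn4b is at 1429 to 1589.9 CPM in the saline-sired and 1177 to 1301 in the methylphenidate-sired libraries, and only Cacna1h has a methylphenidate-sired library (2) within the saline-sired range.

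**Figure D4:**
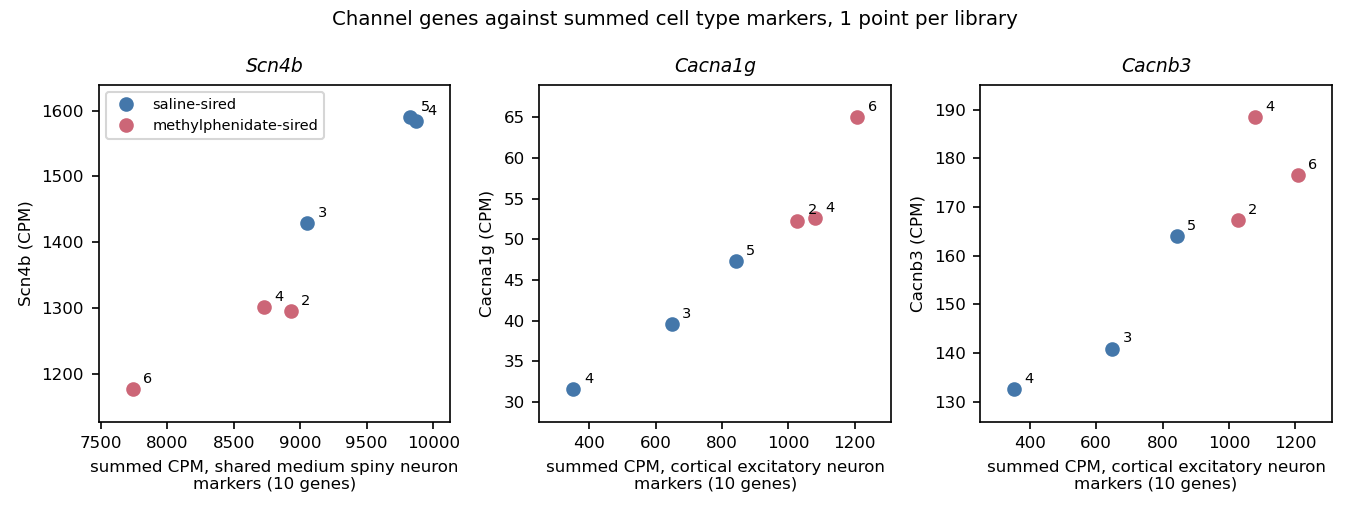
CPM of Scn4b against the summed CPM of 10 shared medium spiny neuron markers, and of Cacna1g and Cacnb3 against that of 10 cortical excitatory neuron markers, 1 point per library with its column number. Methylphenidate-sired library 6 has the lowest medium spiny neuron sum (7742 CPM) with the lowest Scn4b (1177 CPM), and the highest cortical sum (1208 CPM) with the highest Cacna1g (65.0 CPM).

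Genes that work with these channels were taken from 4 lists, and none of their members passed the edgeR test. Over all genes tested, 47.0% had a positive fold change and 9.02% an unadjusted edgeR p under 0.05, and DESeq2 called 1.42% of the genes it gave an adjusted p. Of the 19 calcium channel partners, 13 had a positive and 6 a negative fold change (median 0.11), 6 higher and 1 lower with an unadjusted p under 0.05, and DESeq2 called 3. Rims1, the active-zone scaffold that tethers presynaptic calcium channels, was at 149, 146 and 171 CPM in the saline libraries against 192, 199 and 212 CPM (fold change 0.37, SE 0.08, edgeR adjusted p = 0.376). Stac2, an adaptor of L-type channels, was at 47.3, 37.9 and 40.6 against 54.0, 56.7 and 59.5 CPM (fold change 0.44, SE 0.09, edgeR adjusted p = 0.376). In both the groups did not overlap, and with the cortical covariate the values were 0.23 and 0.32.

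Of the 13 genes of the axon initial segment and of sodium channel regulation, 9 were positive and 4 negative (median 0.04), 4 higher and 1 lower with an unadjusted p under 0.05. Fgf12, a fibroblast growth factor homologue that binds the sodium channel tail, had a fold change of 0.31 (SE 0.09, edgeR adjusted p = 0.452), and Cntn1, the adhesion protein contactin 1, had 0.19 (SE 0.06, edgeR adjusted p = 0.457). With the cortical covariate these were 0.14 and 0.12 (edgeR unadjusted p = 0.221 and 0.185). The sodium leak channel complex gave 3 positive and 1 negative of 4 genes tested (median 0.08), led by its auxiliary subunit gene Fam155a (0.38, SE 0.10, edgeR adjusted p = 0.428) and followed by Unc80 (0.11, SE 0.08, edgeR adjusted p = 0.725), which were 0.27 and 0.0233 with the covariate. Of the 8 genes of the calcium channel gamma family, many of which serve AMPA receptors, 2 were positive and 6 negative (median -0.02) and 0 had an unadjusted p under 0.05. The 2 with the lowest p were Cacng4 (-0.14, and -0.0649 with the covariate) and Cacng2 (0.06, and 0.14 with the covariate).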

How the data were processed

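Striatal RNA was sequenced from 3 saline-sired and 3 methylphenidate-sired offspring. Per the submitters' processing notes, bcl2fastq 2.20.0, Trimmomatic (no version given), HISAT2 2.1.0 and StringTie 2.1.3b were used with build mm10. The sources used here do not give their order and settings, strand use, the handling of reads that match several places, or whether counts are of whole reads or rounded estimates. In the authors' deposited table are read counts per gene, whole numbers that are not normalized, and 12 further columns of normalized values that were not used. Column headings give the group and an animal number that cannot be tied to a labelled animal, so sex was not a covariate.

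Counts were kept by filterByExpr (17874 genes), scaled by TMM and tested with the quasi-likelihood test of edgeR 4.0.16 (R 4.3.3), with Benjamini-Hochberg adjustment over all of them at 0.05. SE and 95% intervals come from this test. DESeq2 1.42.0, limma 3.58.1 (voom), other scalings and filters, a cortical marker score as a covariate and the removal of each library were alternatives. Gene positions, promoters and Entrez matches (32 of 32 members) come from RefSeq tables of GRCm38.p6. Lengths, exons and coding sequences come from GENCODE vM21. The transcript length is that of the longest protein-coding transcript of the gene. Coding lengths and sequences are those of the transcript with the longest coding sequence, which need not be the same one. Members were compared with all its transcripts by blastn 2.17.0. The copies of at least 95% identity over at least 200 nucleotides were the 3 antisense genes at Cacna1s, Cacnb2 and Cacnb4.

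The members are named apart from 2, which are counted but not reported here, and family shares are over the others. The 6 values are given for members with an unadjusted p under 0.05, without overlap between groups, or highest of their family per length. Of each partner list the 2 genes of lowest p are described, with the 6 values for Rims1 and Stac2 only. Members, lists and tests were chosen with earlier results of these data known.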

Additional observations from a re-analysis of the deposited data

How the results depend on the processing

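No paired analysis was possible because the animal numbers of the columns cannot be tied to the replicate numbers of the labels, and the columns of the groups share only the number 4. The 4 genes past the test became 183 with DESeq2, 1 with the cortical covariate and 1 to 4 without each library. Among pore members 0 passed and DESeq2 called 1, and among auxiliary members 0 passed and DESeq2 called 1. Without each library in turn both counts stayed at 0. DESeq2 gave no adjusted p to Scn7a and Cacna1s. The 8 members with an unadjusted p under 0.05 became 3 with the covariate and 4 to 11 without each library, 11 without saline library 5 (12.9% of all genes). The 8 members without overlap stayed at 8 under RLE scaling and with total counts only. Both this count and that of members at an unadjusted p under 0.05 were added after seeing the data. The pore median of 0.10 became -0.00481 with the covariate and 0.0345 to 0.165 without each library, and the auxiliary median of -0.04 ranged from -0.0614 to 0.0443 without each library. With the covariate the sign turned for Cacna2d1 (-0.0428), Cacna2d2 (0.0290), Cacnb2 (0.22), Cacna1b (-0.17), Cacna1c (-0.0229), Cacna1d (-0.0757) and Scn2a (-0.0559), and with total counts only for Cacna1c (-0.0115) and Cacna1s (-0.0265). Without each library in turn the sign was not kept by Cacna2d2 (-0.0916 to 0.0300), Cacnb2 (-0.15 to 0.11), Cacna1c (-0.0523 to 0.0869), Cacna1d (-0.0390 to 0.19), Cacna1s (-0.20 to 0.31), Scn3b (-0.10 to 0.0261) and Scn9a (-0.24 to 0.0798). The cause of these shifts was not tested. The other tested members described here kept their sign in every alternative run, Scn4b, Cacna1g, Cacna2d4 and Cacnb3 among them. The other scalings moved the median fold change of all genes by under 0.1. The 3 libraries per group and the levels of Scn7a and Cacna1s, at or below a few CPM, limit what could be detected.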
